A study of Equus caballus with 24 samples.

Results

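The collagen genes of the horse are described here in the pituitary and in the epiphysis of the long bones of Debao ponies (DPs), a small breed, and Mongolian horses (MHs), a larger breed. They were taken as every gene whose name is COL, a number, A and a number. That gave 41 of the 24232 genes in the table of reads. By the collagen type of each chain, 6 are counted as fibrillar, 7 belong to cartilage, 9 to basement membranes and 19 to other types. Type II and type XI chains, which also form fibrils, are counted with cartilage.

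RNA of both tissues was sequenced from 12 animals, 6 of each breed, which gave 24 libraries in 8 groups of 3. In the long bone these are the juvenile and adult DPs (DPLBJ and DPLBA) and the juvenile and adult MHs (MHLBJ and MHLBA). In the pituitary they are DPPJ, DPPA, MHPJ and MHPA in the same order. The labels name no treatment and give the age only as juvenile or adult, and all animals were female in every group. Each comparison of breeds or stages therefore rests on 3 animals against 3, or 6 against 6 where the stages were combined.

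A collagen is built from 3 chains wound into a triple helix, and the chains of different genes combine in fixed ways. Fibrillar collagens, with type I as the main protein of bone, assemble outside the cell into the fibrils that carry load. Cartilage has its own set. Type II forms its fibrils, types IX and XI coat and thread them, and type X is made by the enlarged chondrocytes of the growth plate shortly before bone replaces cartilage. Type IV collagen forms the sheet-like networks of basement membranes, which line blood vessels and epithelia. The remaining types make beaded filaments, bridge fibrils or span the cell membrane.

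The deposited tables give the reads on each gene and the RPKM, the reads scaled by gene length and library size, which allows levels to be compared between genes. Between 11616518 and 27007342 reads per long bone library and between 11433209 and 23573036 per pituitary library were counted on genes. Genes were called differentially expressed (DEGs) where edgeR's quasi-likelihood test on the reads gave P under 0.05 before adjustment and a change of more than 2-fold. The adjusted p is the Benjamini-Hochberg value over all genes tested, and log2 fold changes are given ± SE. Values in 3 libraries of a group are listed in the order of the replicate numbers. No gene in the table carries the name COL1A1, COL20A1 or COL27A1, so that COL1A1, the gene of the first chain of type I collagen, is not analysed here. All 41 members passed the filter on low reads in at least 1 comparison and 34 passed it in each of the 12.

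The libraries of a group were uneven. All 12 long bone libraries carried osteoblast markers such as IBSP and SPP1 (9 of 9 found, summed RPKM 3010 to 23200, against 31.2 to 1350 in the pituitary). The highest pituitary sum, in MHPA replicate 1, was almost all SPP1 (1342 RPKM). Of 8 anterior pituitary markers 5 were found (GH, PRL, POMC, FSHB and TSHB), with a summed RPKM of 14500 to 42500 in 7 pituitary libraries. In the other 5, which are all of MHPJ, replicate 1 of MHPA and replicate 1 of DPPA, the sum was 0.12 to 20.7 RPKM. The 5 pituicyte and astrocyte markers summed to 2190 to 5370 RPKM in these 5 libraries, to 2110 in DPPJ replicate 2 beside its hormone transcripts, and to 18.1 to 160 in the other 6. Of these markers GFAP stood at 892 to 3609 RPKM and AQP4 at 355 to 695 in 4 of the 5. RAX, also on this list, went the other way, at 0.04 to 0.12 RPKM in MHPJ and 0.05 in MHPA replicate 1. It was at 2.44 RPKM in DPPA replicate 1 and at 0.35 to 12.97 in the 7 libraries high in hormone transcripts. In MHPJ replicate 2 the sum was almost all S100B (2919 RPKM), while GFAP was at 26.5 and AQP4 at 1.86. Erythroid markers (5 of 6 found) reached 653 RPKM in DPLBJ and at most 14.4 in the other long bone groups, and skeletal muscle markers reached 245 in MHLBJ and 184 in MHLBA against at most 5.75 in the DP long bone. Neutrophil markers (2 of 7 found, MPO and LTF) were at 218 to 1530 RPKM in 5 of 6 DP libraries, 2.21 in DPLBJ replicate 1 and 0.11 to 22.1 in the MH libraries. Marrow adipocyte markers (6 of 7 found) were at 1830 to 6850 RPKM in DP long bone libraries. They were at 7000 to 9500 RPKM in 5 of 6 MH libraries, above every DP library, and at 717 in MHLBA replicate 1. The part of these cells in the collagen values was not tested. Results of the pituitary are given with and without the libraries low in hormone transcripts where the design allows it.

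**Figure D1:**
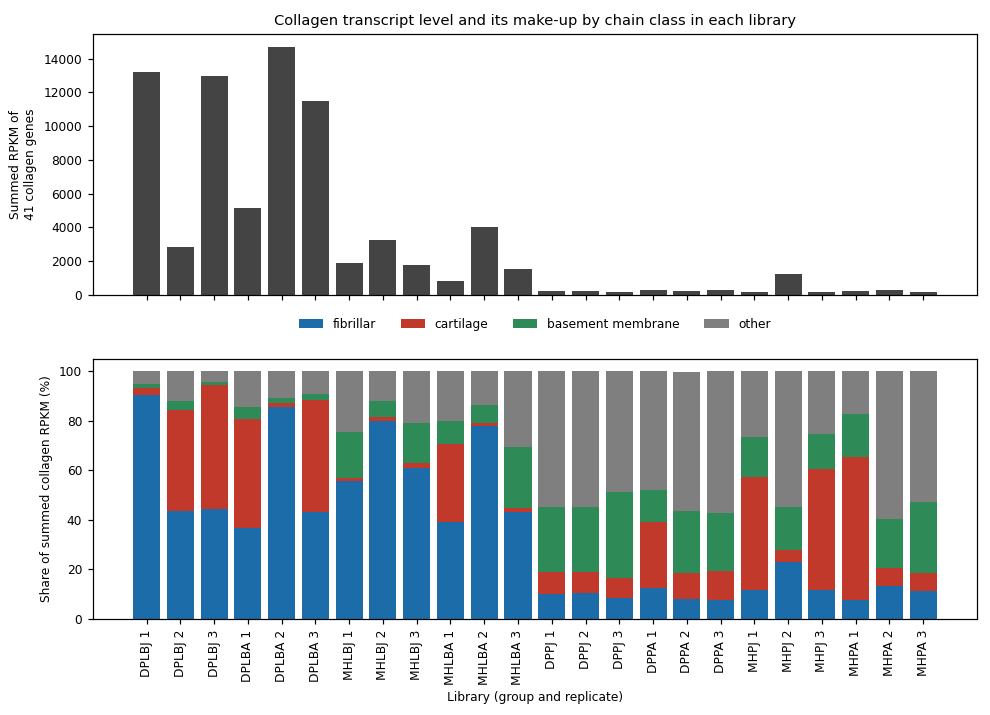
The upper bars show the summed RPKM of the 41 collagen genes in each of the 24 libraries, and the lower bars the share of that sum (%) from fibrillar, cartilage, basement membrane and other chains. The 6 DP long bone libraries run from 2840 to 14700 RPKM and the 6 MH libraries from 832 to 4010. Fibrillar chains hold 36.7% to 90.4% of the sum in the long bone and 7.52% to 22.9% in the pituitary. COL1A1 is not in the sum.

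In the long bone, the 41 genes summed to between 832 and 14700 RPKM (median 3640). The DP libraries held 2840 to 14700 RPKM and the MH libraries 832 to 4010, with an overlap of the lower DP and the higher MH libraries. The pituitary libraries held 179 to 276 RPKM, apart from MHPJ replicate 2 with 1220. In bulk tissue, fewer cells of a type and less RNA per cell cannot be told apart, which holds for every value that follows.

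The make-up of that sum differed between libraries of the same group. COL1A1 has no named gene in the table and is not in the sum, so the shares are not those of all collagen transcripts. Fibrillar chains took 36.7% to 90.4% of the sum in the long bone. Cartilage chains took 31.6% to 50.3% in 5 long bone libraries (DPLBJ replicates 2 and 3, DPLBA replicates 1 and 3, MHLBA replicate 1) and 1.33% to 2.74% in the other 7. Basement membrane chains took 1.16% to 4.81% in the DP libraries and 6.59% to 24.7% in the MH libraries, which did not overlap, while their summed RPKM did (107 to 268 against 76.2 to 383).

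**Figure D2:**
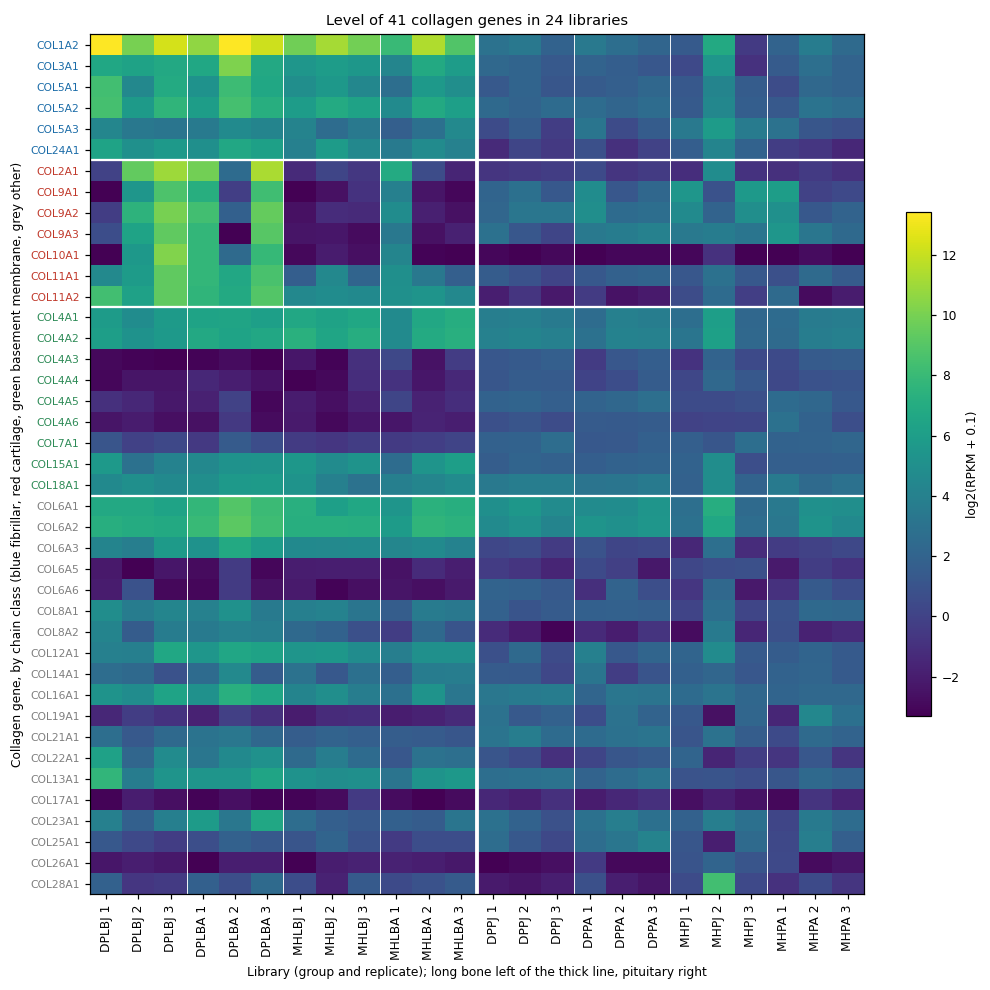
Each cell gives log2(RPKM + 0.1) of a collagen gene (rows, ordered by chain class) in a library (columns, 12 of the long bone and 12 of the pituitary). COL1A2 is the brightest row of the long bone, at 258 to 11008 RPKM, and the cartilage chains are bright in 5 of the 12 long bone libraries.

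The highest median level in the long bone was that of COL1A2, which encodes the second chain of type I collagen, with 1970 RPKM. COL6A2 and COL6A1, of the beaded type VI filaments, followed with 147 and 128 RPKM. The next were COL4A2 (97.7 RPKM), COL5A2 (97.4), COL3A1 (91.1) and COL4A1 (81.7). Each of these genes overlapped its neighbour in the order across the 12 libraries. In the pituitary the order began with COL6A2 (30.3 RPKM), COL6A1 (29.6), COL4A2 (15.6) and COL4A1 (13), again with overlap between neighbours, and COL1A2 stood at a median of 5.98 RPKM.

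The first comparison asked which collagen genes differ between the small and the large breed in the long bone. In the juvenile long bone 37 members were tested, of which 14 were DEGs higher in DPs and 1 was a DEG higher in MHs, or 40.5%, against 13.8% of all genes tested. In the adult long bone 16 of 39 were higher and 1 was lower, or 43.6%, against 18.3% of all genes. The median log2 fold change of the members was 1.02 and 1.44, and that of all genes 0.05 and -0.03. No member reached an adjusted p under 0.05 in either stage alone (lowest 0.136 in juveniles and 0.058 in adults), while 16 and 17 members had an unadjusted P under 0.05. DESeq2 called 17 and 19 members by the same thresholds. In juveniles 9 of 37 were called without MHLBJ replicate 3, or 24.3%, against 8.54% of all genes in that fit. In TMM-scaled reads, groups did not overlap for 10 of 37 members in juveniles and for 14 of 39 in adults, against 21.7% and 29.9% of all genes. With both stages in a single fit, 21 of 39 members were DEGs higher in DPs and 1 was lower, or 56.4%, against 19.3% of all genes. Of these 22, 15 also had an adjusted p under 0.05 (12.8% of all genes did both). Members that passed the filter only through the libraries in which they are high were bound to differ, so these counts describe the members and lend no support to a difference of the family.

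**Figure D3:**
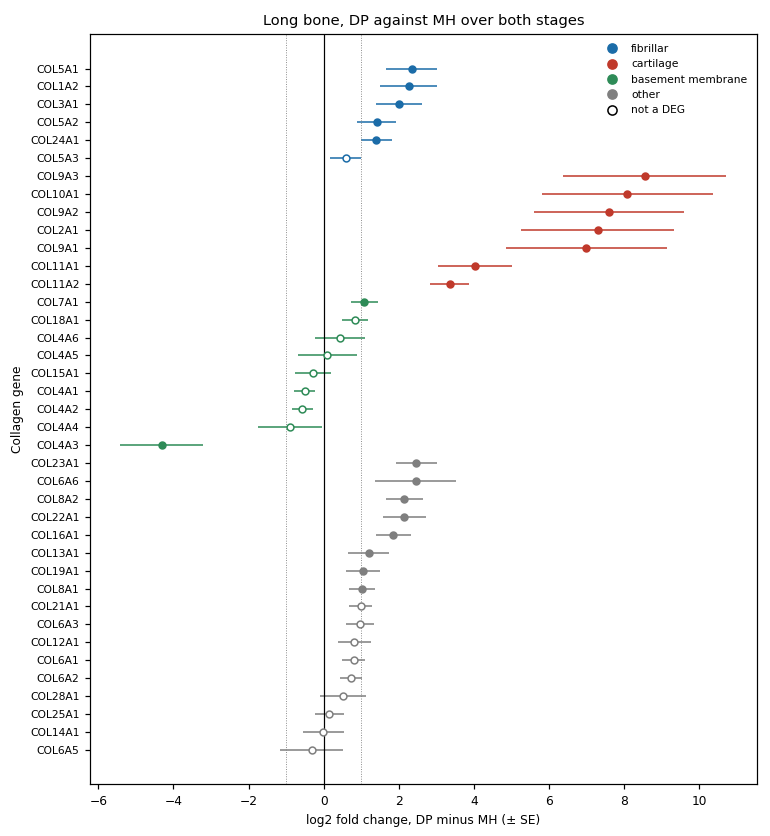
Points give the log2 fold change of DP minus MH over both stages in the long bone and bars its SE, for the 39 collagen genes tested. Filled points are DEGs, dotted lines mark a 2-fold change, and the colours give the chain class. All 7 cartilage chains and 5 of 6 fibrillar chains are filled to the right of 0, and COL4A3 is filled to the left.

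Of the fibrillar chains, 5 of 6 were DEGs higher in DPs over both stages (83.3%, against 19.3% of all genes). In each stage alone 3 of 6 were (50%, against 13.8% of all genes in juveniles and 18.3% in adults). COL1A2 measured 11008, 1032 and 5277 RPKM in DPLBJ, 889, 2312 and 913 in MHLBJ, 1631, 10631 and 4545 in DPLBA, and 258, 2800.3 and 461 in MHLBA. Libraries of each breed varied by more than 10-fold, and 4 of 6 DP libraries lay above every MH library. Its log2 fold change was 2.26 ± 0.76 over both stages (edgeR adjusted p = 0.06), 2.19 ± 0.87 in juveniles and 2.37 ± 1.11 in adults, where it was not a DEG. The juvenile call was lost without DPLBJ replicate 1 or 3, or MHLBJ replicate 1 or 3 (1.23 to 2.31).

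COL3A1 encodes type III collagen, which mixes with type I in blood vessels, marrow stroma and healing bone. Its level was 103, 80.8 and 108 RPKM in DPLBJ, 44.8, 61 and 46.4 in MHLBJ, 101, 1186 and 111 in DPLBA, and 19.4, 117 and 60.6 in MHLBA. The juvenile DP libraries all lay above the juvenile MH libraries, and in adults DPLBA replicate 2 stood about an order of magnitude above the rest. The log2 fold change was 1.08 ± 0.27 in juveniles, 2.96 ± 1.1 in adults and 2.0 ± 0.61 over both stages (edgeR adjusted p = 0.0436). The call over both stages was lost without DPLBA replicate 2 (0.87), the adult call without DPLBA replicate 2, or MHLBA replicate 1 or 3 (0.71 to 2.84) and the juvenile call without MHLBJ replicate 1 or 3 (0.99).

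Type V collagen, a minor partner of type I that sets fibril width, has its first chain from COL5A1 and its second from COL5A2. COL5A1 stood at 326, 22.8 and 118 RPKM in DPLBJ, 31.6, 48.3 and 21.4 in MHLBJ, 37.5, 289 and 103 in DPLBA, and 6.4, 52 and 31.6 in MHLBA. In both stages the group ranges overlapped, through DPLBJ replicate 2 and DPLBA replicate 1. COL5A2 stood at 366, 55.8 and 200.4 RPKM in DPLBJ, 61.3, 120.5 and 78.5 in MHLBJ, 64.2, 357 and 144 in DPLBA, and 25.6, 116 and 71.4 in MHLBA, and the highest library of each group was the same for both genes. Over both stages the log2 fold change was 2.34 ± 0.67 for COL5A1 (edgeR adjusted p = 0.0363) and 1.41 ± 0.52 for COL5A2 (0.0786). COL5A2 was not a DEG in either stage alone, and its call over both stages was lost without DPLBA replicate 2, or DPLBJ replicate 1 (0.94 to 1.05). COL5A1 was called in each stage (2.33 ± 0.87 and 2.39 ± 0.85). Its juvenile call was lost without DPLBJ replicate 1, or MHLBJ replicate 1 or 3 (1.09 to 2.29), and the adult call without DPLBA replicate 2, or MHLBA replicate 3 (1.28 to 2.37).

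COL24A1 encodes type XXIV collagen, a fibrillar collagen found in developing bone. It measured 85.6, 33.2 and 51.4 RPKM in DPLBJ, 15.7, 59 and 22 in MHLBJ, 32.6, 103 and 73.4 in DPLBA, and 11.5, 26.9 and 16.4 in MHLBA. The adult DP libraries all lay above the adult MH libraries, and in juveniles MHLBJ replicate 2 lay within the DP range. For COL24A1 the log2 fold change was 1.9 ± 0.49 in adults, 0.95 ± 0.58 in juveniles, where it was not a DEG, and 1.4 ± 0.41 over both stages (edgeR adjusted p = 0.0385). COL5A3, the last type V chain, ranged from 9.12 to 25.7 RPKM in DPs and from 3.26 to 23.8 in MHs. It was the fibrillar chain that was not called in the long bone (0.58 ± 0.4 over both stages).

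The summed level of 6 fibroblast markers was 541 to 1960 RPKM in the DP libraries and 154 to 586 in the MH libraries. Most of it came from LUM (157 to 1237 RPKM in DPs and 84.7 to 269 in MHs) and DCN (149 to 489 and 38.1 to 173). The others did not all go that way. PDGFRA was at 5.57 to 55.3 RPKM in DPs and 5.73 to 43.7 in MHs, and PDGFRB was at 9.89 to 27.6 in DPLBJ against 30.1 to 45.6 in MHLBJ. The summed level of the 9 osteoblast markers was 6240 to 23200 RPKM in DPs and 3010 to 17100 in MHs. Its members also differed. ALPL was at 68.2 to 252.5 RPKM in DPs and 12.2 to 40.3 in MHs, while RUNX2 overlapped at 33 to 76.6 and 26.8 to 94.2. MHLBA replicate 1, which had the lowest COL1A2, also had the lowest sum of both lists. The part of these cells in the fibrillar result was not tested.

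All 7 cartilage chains were DEGs higher in DPs over both stages (19.3% of all genes were DEGs). Each had an adjusted p under 0.05, and 12.8% of all genes did both. The median log2 fold change of the class was 7.29, the highest of the 4 classes. In juveniles 6 of the 6 tested were DEGs (100%, against 13.8% of all genes), and in adults 2 of 7 were (28.6%, against 18.3%). COL9A3, with 2 to 6 reads in MHLBJ, passed the juvenile filter only through the DP libraries and was bound to differ. COL9A1 and COL9A2 had 0 to 33 reads in MHLBJ. These shares and adjusted p thus describe the chains and lend no support to a difference of the class.

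COL2A1 encodes the single chain of type II collagen, the fibril of cartilage. It measured 0.88, 668 and 1984 RPKM in DPLBJ, 0.3, 1.02 and 0.55 in MHLBJ, 926, 5.68 and 2489 in DPLBA, and 123, 1.41 and 0.23 in MHLBA. It was above 100 RPKM in 5 of 12 libraries and below 6 RPKM in the other 7, so that each group but MHLBJ held both kinds. The 4 high DP libraries lay above every MH library, and the remaining DP libraries lay within the MH range. The log2 fold change of COL2A1 was 7.29 ± 2.04 over both stages (edgeR adjusted p = 0.0326) and 10.52 ± 2.42 in juveniles. In adults, where DPLBA replicate 2 lay below MHLBA replicate 1, it was 4.08 ± 2.49 and not a DEG.

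The 3 chains of type IX, which sits on the surface of type II fibrils, followed the same libraries. COL9A1 measured 0, 45.3 and 428 RPKM in DPLBJ, 0, 0.07 and 0.45 in MHLBJ, 146, 0.77 and 317 in DPLBA, and 15.5, 0.09 and 0.02 in MHLBA. COL9A2 was at 0.72, 181 and 1008 RPKM in DPLBJ, 0.07, 0.34 and 0.3 in MHLBJ, 332, 3.49 and 716 in DPLBA, and 28.2, 0.18 and 0.07 in MHLBA, and COL9A3 at 1.48, 83.3 and 633 RPKM in DPLBJ, 0.09, 0.1 and 0.04 in MHLBJ, 220.3, 0 and 551 in DPLBA, and 10.4, 0.07 and 0.19 in MHLBA. All were highest in DPLBJ replicate 3 and at most at 1.48 RPKM in MHLBJ and in DPLBJ replicate 1, and COL9A3 had no read in DPLBA replicate 2. Over both stages the log2 fold changes were 7.0 ± 2.15 for COL9A1, 7.59 ± 2.0 for COL9A2 and 8.54 ± 2.18 for COL9A3 (edgeR adjusted p = 0.0448, 0.0272 and 0.0251). All were DEGs in juveniles (9.81, 10.69 and 11.6) and none in adults. Values of this size rest on MH libraries with few reads, and the value of COL9A1 over both stages was still larger without MHLBA replicate 1 (10.5).

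COL10A1, the type X chain of hypertrophic chondrocytes, measured 0, 49.4 and 1218 RPKM in DPLBJ, 0.03, 0.14 and 0.06 in MHLBJ, 215, 5.37 and 236 in DPLBA, and 19.8, 0.01 and 0 in MHLBA. It was above 15 RPKM in the 5 libraries with high COL2A1 and at or below 5.37 RPKM in the others. It did not pass the filter in juveniles. Its log2 fold change was 8.08 ± 2.28 over both stages (edgeR adjusted p = 0.0339) and 3.81 ± 2.33 in adults, where it was not a DEG. The value over both stages was larger without MHLBA replicate 1 (13.0).

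**Figure D4:**
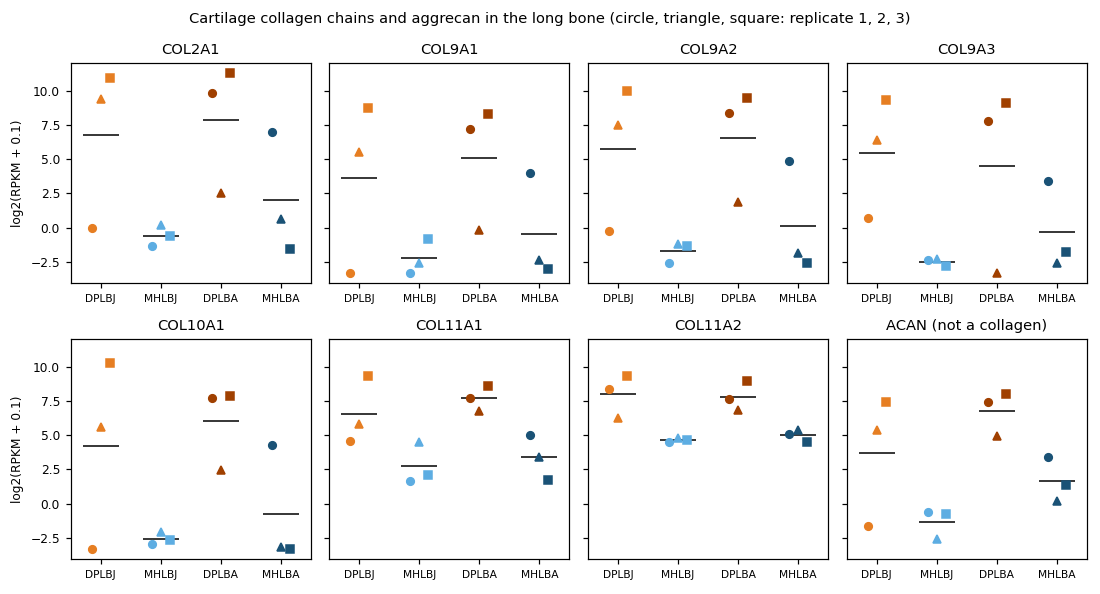
The 8 panels give log2(RPKM + 0.1) of the 7 cartilage collagen genes and of ACAN, the core protein of the cartilage proteoglycan aggrecan, in the 12 long bone libraries. Symbols mark replicates 1, 2 and 3 and lines the mean of 3 libraries. COL2A1 and the type IX chains split the groups DPLBJ, DPLBA and MHLBA, while all 6 DP libraries of COL11A2 (76.4 to 646 RPKM) lie above all 6 MH libraries (22.5 to 41.1).

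The chains of type XI, which lies inside the type II fibril and is also made by bone cells, differed from the rest of the class. COL11A2 measured 334, 76.4 and 646 RPKM in DPLBJ, 22.5, 28 and 24.8 in MHLBJ, 195, 114 and 503 in DPLBA, and 33.5, 41.1 and 22.7 in MHLBA. The 6 DP libraries did not overlap with the 6 MH libraries, which was so for 1 of the 39 members tested and for 5.89% of all genes. In the juveniles the highest values were in DPLBJ replicates 1 and 3, of which replicate 1 had almost no COL2A1. Its log2 fold change was 3.89 ± 0.7 in juveniles, 2.85 ± 0.65 in adults and 3.36 ± 0.52 over both stages, a 10.3-fold difference (edgeR adjusted p = 0.00585). COL11A2 kept its call in each stage and over both when any 1 library was left out. COL11A1 measured 23.7, 57.3 and 635 RPKM in DPLBJ, 3.06, 22.6 and 4.18 in MHLBJ, 214, 107 and 389 in DPLBA, and 32.4, 10.4 and 3.28 in MHLBA. The groups of the same stage did not overlap, although over both stages DPLBJ replicate 1 lay within the MH range. Its log2 fold change was 4.02 ± 0.98 over both stages (edgeR adjusted p = 0.0217), 4.59 ± 1.42 in juveniles and 3.46 ± 1.04 in adults. The juvenile call was lost without DPLBJ replicate 3 (2.26), and the adult value was larger without MHLBA replicate 1 (5.24).

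Other cartilage markers moved with these chains only in part. Of 11 listed, 9 were found, and their summed level was 367 to 3320 RPKM in the DP libraries and 38.1 to 167 in the MH libraries. The sum was 564 and 440 RPKM in DPLBJ replicate 1 and DPLBA replicate 2, which were low in COL2A1. In DPLBJ replicate 2 and MHLBA replicate 1, which were high in COL2A1, it was 367 and 167 RPKM. In the 5 libraries with high COL2A1, ACAN was at 10.4 to 252 RPKM and LECT1, which encodes chondromodulin, at 53.2 to 1154. In the other 7 they were at 0.07 to 30.1 and 2.14 to 14.8 RPKM. DPLBJ replicate 1 had its sum of 564 RPKM mostly from CHAD (535 RPKM), the cartilage matrix protein chondroadherin. CHAD was at 318 RPKM in DPLBA replicate 2, against 87.9 in DPLBJ replicate 2 and 43.45 in MHLBA replicate 1. MATN1 (0 to 3.22 RPKM) and EPYC (0 to 0.29) were near 0 in all 12. COL2A1 had 3.94 to 11.9 reads for each read of ACAN in the 5 libraries, and 0.139 in DPLBA replicate 2, where ACAN was at 30.1 RPKM. The part of the amount of cartilage in a sample in these differences was not tested.

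The basement membrane chains gave 2 DEGs of 9 over both stages, COL7A1 higher and COL4A3 lower in DPs. That is 22.2%, near the 19.3% of all genes, and the median log2 fold change of the class was -0.28. In juveniles 2 of 8 were DEGs (25%, against 13.8% of all genes) and in adults 2 of 9 (22.2%, against 18.3%). COL4A1 and COL4A2 encode the chains of the type IV network found in nearly all basement membranes. COL4A1 measured 59.3, 28.7 and 54.7 RPKM in DPLBJ, 106, 80.2 and 102 in MHLBJ, 83.2, 89.8 and 69.8 in DPLBA, and 26.3, 108 and 139 in MHLBA. COL4A2 measured 66.7, 37.6 and 52.3 RPKM in DPLBJ, 160.5, 92.5 and 138 in MHLBJ, 108, 83.5 and 103 in DPLBA, and 25.9, 119.6 and 149.8 in MHLBA. The juvenile MH libraries lay above all juvenile DP libraries for both genes, and the adult groups overlapped. In juveniles the log2 fold change was -1.17 ± 0.33 for COL4A2, a DEG (edgeR adjusted p = 0.171), and -0.88 ± 0.32 for COL4A1, which had less than a 2-fold change. In adults the values were 0.07 ± 0.45 and -0.1 ± 0.44. The juvenile call of COL4A2 was lost without MHLBJ replicate 1 (-0.99).

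The summed level of the 5 endothelial markers was 174 to 258 RPKM in DPLBJ and 438 to 446 in MHLBJ, higher in MHs as were COL4A1 and COL4A2. PECAM1, CDH5 and TEK did not overlap between the juvenile breeds. VWF (13.7 to 52.9 RPKM in DPLBJ and 49.2 to 62.4 in MHLBJ) and KDR (12.5 to 31 and 29.6 to 44.2) did. In adults the sum was 187 to 325 RPKM in DPs and 97.1 to 669 in MHs. Among the adult libraries MHLBA replicate 1 was lowest, and MHLBA replicates 2 and 3 highest, for the sum, COL4A1 and COL4A2. The part of blood vessels in the type IV values was not tested.

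The other type IV chains, which form the networks of kidney, lung and skin, were scarce in the long bone. COL4A3 measured 0.03, 0.01 and 0 RPKM in DPLBJ, 0.1, 0.01 and 0.39 in MHLBJ, 0.01, 0.05 and 0 in DPLBA, and 1.16, 0.08 and 0.67 in MHLBA. It had at most 7 reads in each DP library, and DPs and MHs did not overlap in adults, with a log2 fold change of -5.26 ± 1.42 (edgeR adjusted p = 0.0884) that rests on few reads. Over both stages it was -4.31 ± 1.1 (0.0255). COL4A3 passed the filter only through MH libraries and was bound to differ, so these adjusted p lend no support. COL4A4, COL4A5 and COL4A6 were at most at 1.05 RPKM in all 12 libraries and were not called between breeds.

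COL7A1 encodes the anchoring fibril of the skin. It measured 2.02, 0.85 and 1.15 RPKM in DPLBJ, 0.65, 0.54 and 0.71 in MHLBJ, 0.6, 2.69 and 1.48 in DPLBA, and 0.61, 0.75 and 0.98 in MHLBA. In juveniles the breeds did not overlap and the log2 fold change was 1.24 ± 0.39, while over both stages it was 1.09 ± 0.36 (edgeR adjusted p = 0.0565). The juvenile call was lost without DPLBJ replicate 1, or MHLBJ replicate 2 (0.78 to 1.11), and the call over both stages without DPLBA replicate 2, or DPLBJ replicate 1 (0.74 to 0.88). COL18A1, a vascular basement membrane collagen whose end fragment is endostatin, measured 25.1, 32.2 and 24.6 RPKM in DPLBJ, 38.1, 15.3 and 7.95 in MHLBJ, 30.4, 53.1 and 55.1 in DPLBA, and 14.7, 19.4 and 26.4 in MHLBA. It was a DEG in adults, without overlap of the breeds (1.13 ± 0.34, edgeR adjusted p = 0.107), a call lost without DPLBA replicate 2 (0.98). COL15A1, its closest relative, ranged from 7.36 to 50.1 RPKM in DPs and from 5.91 to 65.5 in MHs and was not called (-0.28 ± 0.47 over both stages).

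Of the 17 other chains tested over both stages, 8 were DEGs, all higher in DPs (47.1%, against 19.3% of all genes). In juveniles 4 of 17 were DEGs (23.5%, against 13.8%) and in adults 10 of 17 (58.8%, against 18.3%). Type VI collagen forms beaded filaments around cells. COL6A1, its first chain, measured 111, 108 and 83.2 RPKM in DPLBJ, 152, 68.7 and 100.4 in MHLBJ, 219, 491 and 273 in DPLBA, and 42.7, 163 and 146 in MHLBA, and COL6A2 measured 148, 128 and 113 RPKM in DPLBJ, 147, 146 and 141 in MHLBJ, 248, 591 and 305 in DPLBA, and 57.1, 196 and 169.9 in MHLBA. COL6A3, the long chain of type VI, measured 18.5, 14 and 55 RPKM in DPLBJ, 24.1, 23.6 and 25.3 in MHLBJ, 37.9, 115 and 60 in DPLBA, and 20.8, 26.3 and 17.2 in MHLBA. The 3 adult DP libraries lay above the 3 adult MH libraries for all 3 genes, and the juvenile groups overlapped. In adults the log2 fold changes were 1.54 ± 0.5, 1.49 ± 0.5 and 1.6 ± 0.53 (edgeR adjusted p = 0.12, 0.13 and 0.129). None was a DEG in juveniles (0.08, 0.01 and 0.35). The adult calls were lost without DPLBA replicate 2 (1.07) for COL6A1, DPLBA replicate 2 (0.96) for COL6A2, and DPLBA replicate 2, or MHLBA replicate 3 (1.0 to 1.36) for COL6A3. COL6A6, a chain that can take the place of COL6A3, was at most at 1.77 RPKM and was a DEG over both stages (2.46 ± 1.08), with its highest value in DPLBJ replicate 2. That call was lost without DPLBA replicate 2, DPLBJ replicate 2, MHLBA replicate 1, 2 or 3, or MHLBJ replicate 2 or 3 (0.92 to 2.63). COL6A5 stayed at or below 0.66 RPKM and was not called.

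Type VIII collagen makes short-chain lattices in vessel walls. COL8A1 measured 29.6, 13.1 and 19.3 RPKM in DPLBJ, 15, 16.9 and 8.98 in MHLBJ, 16.3, 35.2 and 11.9 in DPLBA, and 3.03, 12.5 and 10.4 in MHLBA. COL8A2 measured 19.1, 2.78 and 13.2 RPKM in DPLBJ, 5.2, 3.67 and 1.61 in MHLBJ, 11.5, 16.2 and 14.1 in DPLBA, and 0.72, 5.11 and 1.95 in MHLBA. Over both stages 5 of 6 DP libraries lay above every MH library for COL8A2. Its log2 fold change was 1.86 ± 0.71 in juveniles, 2.48 ± 0.54 in adults and 2.15 ± 0.49 over both stages (edgeR adjusted p = 0.017). The juvenile call was lost without DPLBJ replicate 1 or 3, or MHLBJ replicate 2 or 3 (1.24 to 1.89). COL8A1 overlapped between the breeds by RPKM and differed by 1.36 ± 0.51 in adults and 1.03 ± 0.35 over both stages (0.0608). Its adult call was lost without DPLBA replicate 2, or MHLBA replicate 1 or 3 (0.7 to 1.42), and that over both stages without DPLBA replicate 2, DPLBJ replicate 1, MHLBA replicate 1, or MHLBJ replicate 3 (0.69 to 0.91).

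The fibril-associated collagens (FACITs) attach to the surface of other fibrils. Of 6 tested, 3 were DEGs over both stages (COL16A1, COL22A1 and COL19A1), 2 in juveniles and 4 in adults. These are 50%, 33.3% and 66.7%, against 19.3%, 13.8% and 18.3% of all genes. COL16A1 measured 38.1, 28.4 and 82.2 RPKM in DPLBJ, 19.1, 31.1 and 13.4 in MHLBJ, 35.8, 155 and 98.1 in DPLBA, and 7.18, 39 and 9.43 in MHLBA. COL22A1, a collagen of tissue junctions, measured 76.5, 4.6 and 26.9 RPKM in DPLBJ, 5.43, 13.4 and 5.62 in MHLBJ, 9.41, 24.2 and 36 in DPLBA, and 2.23, 7.8 and 6.92 in MHLBA. Above every MH library lay 3 of 6 DP libraries for COL16A1 and 4 of 6 for COL22A1, and DPLBJ replicate 2 and DPLBA replicate 1 were the lowest of their groups for both. The log2 fold change over both stages was 1.86 ± 0.48 for COL16A1 and 2.15 ± 0.57 for COL22A1 (edgeR adjusted p = 0.0256 and 0.0285). In adults the groups did not overlap for COL22A1 (2.07 ± 0.52), and COL16A1 was at 2.42 ± 0.74. In juveniles they were at 2.27 ± 0.91 and 1.32 ± 0.46, and these calls were lost without DPLBJ replicate 1 or 3, or MHLBJ replicate 1 or 3 (0.98 to 2.49) for COL22A1 and without DPLBJ replicate 3, or MHLBJ replicate 1 or 3 (0.86 to 1.24) for COL16A1.

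COL12A1, which bridges type I fibrils, measured 15.5, 14.9 and 99.3 RPKM in DPLBJ, 41.7, 46.7 and 28.7 in MHLBJ, 44.8, 97.4 and 79.5 in DPLBA, and 14.6, 33.5 and 33.4 in MHLBA. It was higher in adult DPs without overlap (1.44 ± 0.4, edgeR adjusted p = 0.0938) and was not a DEG in juveniles (0.2 ± 0.7). COL21A1 measured 6.65, 2.51 and 5.22 RPKM in DPLBJ, 3, 3.97 and 3.31 in MHLBJ, 8.34, 9.91 and 4.63 in DPLBA, and 2.92, 2.66 and 2.11 in MHLBA. In adults its RPKM did not overlap between the breeds and the log2 fold change was 1.38 ± 0.46, a call lost without DPLBA replicate 2, or MHLBA replicate 3 (1.09 to 1.13), while over both stages (0.98 ± 0.31) it was just under the 2-fold threshold. COL19A1 was at most at 0.82 RPKM in the long bone and was a DEG over both stages (1.05 ± 0.46, edgeR adjusted p = 0.129), a call lost without DPLBA replicate 2, DPLBJ replicate 2 or 3, MHLBA replicate 1, 2 or 3, or MHLBJ replicate 1 or 2 (0.68 to 1.13). COL14A1 was not called (-0.01 ± 0.54).

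The transmembrane collagens have their triple helix outside the cell and a short end within it. COL23A1 measured 15.8, 3.45 and 15 RPKM in DPLBJ, 6.36, 3.29 and 2.47 in MHLBJ, 58, 9.67 and 98.7 in DPLBA, and 3.38, 2.84 and 9.11 in MHLBA. It was a DEG in both stages, with a log2 fold change of 1.61 ± 0.62 in juveniles, 3.36 ± 0.79 in adults, where the breeds did not overlap, and 2.47 ± 0.55 over both stages (edgeR adjusted p = 0.0156). The juvenile call was lost without DPLBJ replicate 1 or 3, or MHLBJ replicate 2 or 3 (1.24 to 1.47). COL13A1, which is found at cell adhesions, measured 207, 12.9 and 41.3 RPKM in DPLBJ, 36.7, 30.1 and 31.6 in MHLBJ, 41.9, 43.1 and 87.4 in DPLBA, and 8.75, 39 and 49.6 in MHLBA. DPLBJ replicate 1 was the highest library by a wide margin. The log2 fold change over both stages was 1.2 ± 0.54 (edgeR adjusted p = 0.143), a call lost without DPLBA replicate 2 or 3, DPLBJ replicate 1, MHLBA replicate 1 or 2, or MHLBJ replicate 1, 2 or 3 (0.34 to 1.27). COL25A1 was not called (0.15 ± 0.39), and COL17A1, which belongs to the skin, was at most at 0.63 RPKM and was not tested. COL28A1 was not called (0.52 ± 0.6), and COL26A1 was at most at 0.21 RPKM and was not tested.

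The next comparison asked whether collagen levels changed between the stages in the long bone. In MHs 3 of 36 members tested were DEGs, or 8.33%, against 2.91% of all genes, and all 3 were lower in juveniles. They were COL2A1 (-6.78 ± 2.39), COL9A2 (-6.0 ± 2.31) and COL4A5 (-2.48 ± 0.92), and the edgeR adjusted p was 0.998 for each. All 3 were highest in MHLBA replicate 1. Without that library COL2A1 was at -0.36, COL9A2 turned to 0.92 and COL4A5 was at -0.97, and none was a DEG. With 1 library left out, the calls were lost without MHLBA replicate 1, or MHLBJ replicate 1, 2 or 3 (-7.36 to -0.36) for COL2A1, MHLBA replicate 1, or MHLBJ replicate 1, 2 or 3 (-6.36 to 0.92) for COL9A2, and MHLBA replicate 1, or MHLBJ replicate 1 or 2 (-2.49 to -0.97) for COL4A5. None of the 36 was called without MHLBJ replicate 1 or 2, against 6 without MHLBA replicate 2. In DPs 4 of 37 were DEGs, or 10.8%, against 3.14% of all genes, and all 4 were lower in juveniles. They were COL6A1 (-1.68 ± 0.46), COL6A2 (-1.54 ± 0.47), COL3A1 (-2.31 ± 0.99) and COL23A1 (-2.24 ± 0.82), each with an adjusted p of 0.988. For COL6A1 and COL6A2 the juvenile and adult DP libraries did not overlap, as was the case for 4 of 37 members and 9.01% of all genes. Without DPLBA replicate 2, COL3A1 was at -0.05. COL6A2 was lost without DPLBA replicate 2 (-1.0), COL3A1 without DPLBA replicate 2, or DPLBJ replicate 1, 2 or 3 (-2.36 to -0.05) and COL23A1 without DPLBA replicate 1 or 3, or DPLBJ replicate 2 (-2.23 to -1.52), and 2 members were called without DPLBA replicate 2 and 2 without DPLBJ replicate 2. None of the 7 cartilage chains was a DEG between the stages of DPs.

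A test of the breed difference between stages (juvenile minus adult) called 4 of 39 members in the long bone, or 10.3%, against 4.17% of all genes. They were COL25A1 (-1.9 ± 0.79), COL6A2 (-1.53 ± 0.57), COL6A1 (-1.51 ± 0.63) and COL4A2 (-1.28 ± 0.57), each with an edgeR adjusted p of 0.971. For COL6A1 and COL6A2 the DP minus MH difference was near 0 in juveniles and over 1 in adults. For COL4A2 it was below -1 in juveniles and near 0 in adults, and for COL25A1 it was -0.75 ± 0.6 and 1.1 ± 0.49. The calls were lost without DPLBA replicate 2, DPLBJ replicate 2 or 3, MHLBA replicate 1 or 3, or MHLBJ replicate 2 (-1.94 to -1.41) for COL25A1, DPLBA replicate 2 (-0.98) for COL6A2, DPLBA replicate 2, DPLBJ replicate 3, MHLBA replicate 1, or MHLBJ replicate 1 (-1.33 to -1.01) for COL6A1, and DPLBA replicate 1, 2 or 3, DPLBJ replicate 2 or 3, MHLBA replicate 1, or MHLBJ replicate 1 or 3 (-1.34 to -0.87) for COL4A2. Leaving out DPLBJ replicate 1 gave 7 members, leaving out DPLBA replicate 2, DPLBJ replicate 2 or MHLBJ replicate 1 gave 2, and leaving out MHLBA replicate 1 gave 1. None of the 7 cartilage chains was called (unadjusted P under 0.05 for 0 of 7). Their values all lay above 0, with a median of 6.09 against 0.07 over all genes. The absent calls thus do not show that their breed difference was alike in both stages.

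In the juvenile pituitary 10 of 40 members tested were DEGs between the breeds, or 25%, against 20.3% of all genes, 2 higher and 8 lower in DPs. An adjusted p under 0.05 was reached by 4 of them, against 8.73% of all genes, and the groups did not overlap for 10 of 40 members, against 39.7%. COL26A1, among these 4, passed the filter on low reads only through the MHPJ libraries and was bound to differ. The DEGs higher in DPs were COL13A1 (1.84 ± 0.21) and COL4A5 (1.19 ± 0.21). COL13A1 stood at 6.62, 7.2 and 8.01 RPKM in DPPJ and 1.85, 1.96 and 1.52 in MHPJ, and COL4A5 at 3.67, 4.17 and 3.3 and 1.3, 1.31 and 1.64. The groups did not overlap for either gene, and the edgeR adjusted p was 0.0138 and 0.0289. Both kept their call when any 1 library was left out.

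The largest differences in the other direction were those of COL28A1 (-9.94 ± 2.87) and COL26A1. COL28A1 encodes a collagen found around the Schwann cells of peripheral nerves, and measured 0.13, 0.09 and 0.17 RPKM in DPPJ and 1.34, 321 and 1.21 in MHPJ. The value of MHPJ replicate 2 was more than 2 orders of magnitude above that of the other MH libraries, and without it the log2 fold change was -3.42. COL26A1 had at most 2 reads in each DPPJ library and 52 to 80 in each MHPJ library. It was at least 29.4-fold lower in DPPJ against a floor of 3 reads per library. Its adjusted p from edgeR was 0.0169, which lends no support, because it passed the filter only through the MHPJ libraries and was bound to differ. The lower DEGs also held 2 fibrillar chains, COL5A3 (-4.32 ± 0.97, adjusted p = 0.0459) and COL24A1 (-3.97 ± 0.94, 0.0508). The cartilage class gave COL11A2 (-3.51 ± 1.0), COL9A1 (-3.05 ± 1.14) and COL9A3 (-1.79 ± 0.73), and the last was COL6A5 (-1.78 ± 0.49). Calls were lost without DPPJ replicate 1, 2 or 3, or MHPJ replicate 1 or 3 (-3.59 to -2.45) for COL9A1 and DPPJ replicate 2 or 3, or MHPJ replicate 1, 2 or 3 (-1.89 to -1.33) for COL9A3. Without MHPJ replicate 2, COL11A2 was at -2.14 and COL24A1 at -2.6, both still DEGs.

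COL9A1 differed between pituitary libraries of the same group. It stood at 44.9, 1.79 and 53.3 RPKM in MHPJ, 4.06, 7.19 and 2.34 in DPPJ, 62.7, 0.88 and 1.2 in MHPA and 27.7, 2.29 and 4.65 in DPPA. The 4 libraries above 27 RPKM are 4 of the 5 with little hormone transcript. COL9A2 was also highest in these 4, at 25.9 to 33.7 RPKM against 2.31 to 9.42 in the other 8. MHPJ replicate 2, the fifth, stood apart in another way. It had the highest pituitary level of COL1A2 (2.57, 117 and 0.61 RPKM in MHPJ), COL3A1 (1.22, 44 and 0.42) and COL4A1 (6.6, 68.2 and 4.77), and a summed level of 570 RPKM for skeletal muscle markers against at most 11.3 in the other 11 pituitary libraries.

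The direction of the juvenile pituitary counts rested on that library. Without MHPJ replicate 2, 24 of 40 members were DEGs, or 60%, against 29.9% of all genes in that fit, and 16 of them were higher and 8 of them lower in DPs. The median log2 fold change of the members was -1.15 on the reads, -0.17 with limma on log2(RPKM + 1) and 0.08 on log2(RPKM + 0.1). All MHPJ libraries had a hormone marker sum of 0.12 to 9.89 RPKM, against 33600 to 42500 in DPPJ, so that the cells sampled and the breed cannot be told apart in this comparison.

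In the adult pituitary 1 of 39 members tested was a DEG, or 2.56%, against 2.93% of all genes. It was COL21A1, higher in DPs (1.25 ± 0.44, edgeR adjusted p = 0.515), at 5.76, 7.43 and 8.79 RPKM in DPPA and 1.28, 5.51 and 3.9 in MHPA. Without replicate 1 of both groups, which are the adult libraries with little hormone transcript, 6 of 39 members were DEGs, or 15.4%, against 6.02% of all genes in that fit, 4 higher and 2 lower in DPs. Leaving out 1 library gave 5 members where DPPA replicate 1 or MHPA replicate 2 was dropped, 3 where MHPA replicate 1 was, and 0 where replicate 3 of either group was. The call of COL21A1 was lost without DPPA replicate 2 or 3, or MHPA replicate 1 or 3 (0.87 to 1.28), and also without both replicates 1.

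Between stages, 7 of 40 members were DEGs in the MH pituitary, or 17.5%, against 7.74% of all genes, of which 5 were higher and 2 lower in juveniles. COL28A1 (7.51 ± 2.61), COL2A1 (4.62 ± 1.87), COL24A1 (4.21 ± 0.97), COL5A3 (2.95 ± 1.07) and COL6A5 (1.99 ± 0.61) were higher, and COL4A5 (-1.44 ± 0.44) and COL4A6 (-2.02 ± 0.67) lower. The lowest edgeR adjusted p was 0.346. All 3 MHPJ libraries were low in hormone transcripts and MHPA replicates 2 and 3 were not (31900 and 31300 RPKM), so that the cells sampled and the stage cannot be told apart. Without MHPA replicate 1, the MHPA library that was also low, 8 of 40 were DEGs, or 20%, against 15.5% of all genes. Without MHPJ replicate 2 COL2A1 was at -0.06 and COL28A1 at 1.02, neither a DEG. The calls were lost without MHPA replicate 1, 2 or 3, or MHPJ replicate 2 (1.02 to 8.04) for COL28A1, MHPA replicate 1, 2 or 3, or MHPJ replicate 2 (-0.06 to 4.77) for COL2A1, MHPA replicate 1, or MHPJ replicate 1 (-1.3 to -0.99) for COL4A5, MHPA replicate 1, or MHPJ replicate 1, 2 or 3 (-2.1 to -1.13) for COL4A6, MHPA replicate 2 or 3, or MHPJ replicate 2 (1.63 to 2.61) for COL5A3, and MHPA replicate 3, or MHPJ replicate 3 (1.88 to 2.02) for COL6A5, and dropping MHPA replicate 2 or 3 left 4 and 3 members called. In the DP pituitary 2 of 39 were DEGs, or 5.13%, against 3.56% of all genes. COL9A3 (-2.0 ± 0.69) and COL25A1 (-1.81 ± 0.68), a transmembrane collagen of neurons, were lower in juveniles, with an adjusted p from edgeR of 0.419 each. They were lost without DPPA replicate 3, or DPPJ replicate 2 (-1.88 to -1.74) for COL9A3 and DPPA replicate 2 or 3, or DPPJ replicate 2 or 3 (-1.9 to -1.39) for COL25A1. Dropping DPPA replicate 1, the library low in hormone transcripts, gave 3 of 39 or 7.69%, against 2.96% of all genes. Dropping DPPA replicate 2 gave 5 members and dropping DPPJ replicate 1 gave 4, while there was 1 on dropping DPPA replicate 3 or DPPJ replicate 2 or 3.

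The test of the breed difference between stages called 7 of 40 members in the pituitary, or 17.5%, against 15.7% of all genes. All 7 had a lower DP minus MH difference in juveniles. They were COL28A1 (-9.9 ± 2.88), COL26A1 (-5.5 ± 2.12), COL2A1 (-5.12 ± 1.89), COL24A1 (-4.95 ± 1.2), COL5A3 (-4.54 ± 1.45), COL12A1 (-3.64 ± 1.38) and COL6A5 (-2.75 ± 1.15), and the lowest edgeR adjusted p was 0.15. Without MHPJ replicate 2 COL28A1 was at -3.48. Calls were lost without MHPJ replicate 2 (-0.51) for COL2A1, DPPA replicate 1, or DPPJ replicate 1 or 2 (-5.5 to -2.68) for COL26A1, DPPA replicate 1, DPPJ replicate 1 or 3, MHPA replicate 3, or MHPJ replicate 2 (-3.48 to -1.91) for COL12A1, and DPPA replicate 1 or 2, DPPJ replicate 2 or 3, MHPA replicate 1 or 3, or MHPJ replicate 2 or 3 (-2.75 to -2.05) for COL6A5. The count was 4 without DPPA replicate 1 and 11 without MHPA replicate 1. The fitted value of COL26A1 rests on DPPJ libraries at or under the floor of 3 reads and is no bound.

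The last comparison of levels set the 12 long bone against the 12 pituitary libraries. Of 41 members, 24 were DEGs higher and 10 lower in the long bone, or 82.9%, against 38.9% of all genes, and all 34 had an adjusted p under 0.05 (38.3% of all genes). The classes divided. All 6 fibrillar chains were higher, 4 of 7 cartilage chains were higher and none lower, and the 9 basement membrane chains split into 4 higher and 5 lower. The median log2 fold change was 4.5 for the fibrillar chains and -3.47 for the 6 type IV chains, against -0.03 over all genes.

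**Figure D5:**
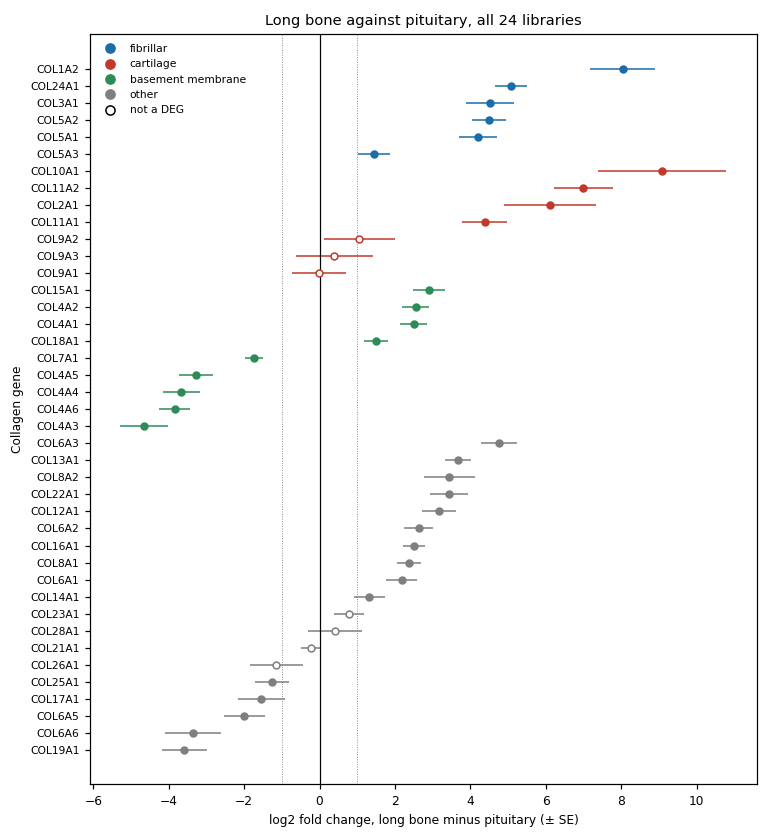
Points give the log2 fold change of long bone minus pituitary over all 24 libraries and bars its SE, for the 41 collagen genes coloured by chain class. Filled points are DEGs and dotted lines mark a 2-fold change. The fibrillar chains lie between 1.44 and 8.04, while the type IV chains form a group of 2 near 2.5 and a group of 4 between -4.65 and -3.28.

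COL1A2 ranged from 258 to 11008 RPKM in the long bone and from 0.61 to 117 in the pituitary, without overlap, and had a log2 fold change of 8.04 ± 0.86. COL10A1 (9.08 ± 1.71), COL11A2 (7.0 ± 0.78) and COL2A1 (6.11 ± 1.21) were the cartilage chains with the largest values, of which COL11A2 alone did not overlap (22.5 to 646 against 0.04 to 5.61 RPKM). Groups that did not overlap were found for 7 of 41 members and 7.52% of all genes. COL10A1 was listed at 0 in 5 pituitary libraries and reached 0.42 RPKM in the highest, while it stood at 0 to 1218 RPKM in the long bone. The type IX chains were not DEGs between the tissues, at -0.01 ± 0.72 for COL9A1, 1.05 ± 0.94 for COL9A2 and 0.38 ± 1.02 for COL9A3.

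Among the basement membrane chains, COL4A1 (2.5 ± 0.36) and COL4A2 (2.55 ± 0.35), COL15A1 (2.9 ± 0.42) and COL18A1 (1.49 ± 0.32) were higher in the long bone. COL4A3 (-4.65 ± 0.64), COL4A4 (-3.66 ± 0.5), COL4A5 (-3.28 ± 0.46), COL4A6 (-3.84 ± 0.41) and COL7A1 (-1.74 ± 0.24) were lower. COL4A6 ranged from 0.03 to 0.59 RPKM in the long bone and from 0.88 to 7.43 in the pituitary, without overlap, as did COL4A4 (0 to 0.45 against 0.95 to 5).

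Among the other chains 10 were higher and 5 lower. COL6A3 (4.76 ± 0.48) and COL13A1 (3.67 ± 0.35) were higher without overlap. COL22A1 (3.43), COL8A2 (3.44), COL12A1 (3.16), COL6A2 (2.63), COL16A1 (2.52), COL8A1 (2.37), COL6A1 (2.18) and COL14A1 (1.32) were the remaining higher ones. COL19A1 (-3.58), COL6A6 (-3.35), COL6A5 (-1.99), COL17A1 (-1.54) and COL25A1 (-1.25) were lower. The fibrillar chains after COL1A2 were COL24A1 (5.07), COL3A1 (4.51), COL5A2 (4.5), COL5A1 (4.21) and COL5A3 (1.44), and COL11A1 stood at 4.38. Without the 5 pituitary libraries low in hormone transcripts 35 of 40 members were DEGs, or 87.5%, against 40.2% of all genes in that fit, 25 higher and 10 lower. Calls were lost without MHLBA replicate 1 (6.66) for COL10A1, DPLBA replicate 2 (0.99) for COL14A1, MHPA replicate 2 (-1.33) for COL17A1, and MHPA replicate 2, or MHPJ replicate 3 (-0.95 to -0.9) for COL25A1.

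In the RefSeq gene order of another horse assembly (TB-T2T), all 41 members were found by symbol and 7 pairs of them are next to each other among protein-coding genes. The pairs COL3A1 and COL5A2 (log2 fold change between tissues 4.51 and 4.5), COL4A1 and COL4A2 (2.5 and 2.55), COL6A1 and COL6A2 (2.18 and 2.63), COL4A4 and COL4A3 (-3.66 and -4.65), COL4A6 and COL4A5 (-3.84 and -3.28) and COL6A5 and COL6A6 (-1.99 and -3.35) each had the same sign. The seventh pair, COL19A1 and COL9A1, had -3.58 and -0.01. Between the breeds of the long bone COL6A5 and COL6A6 went in opposite directions (-0.32 and 2.46), and COL4A4 and COL4A3 stood apart (-0.9 and -4.31). The reads of neighbouring or overlapping genes were counted by a procedure that is not given in the sources used here.

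Whether the chains of a collagen type keep their ratio was compared by the log2 ratio of the reads of 2 chains in each library. This ratio carries the lengths of the genes and serves only to compare libraries. Of 8 pairs, 6 had at least 10 reads for both chains in every long bone library. None of the 6 differed between 6 DP and 6 MH libraries at an adjusted p under 0.05 (two-sided exact permutation test, adjusted over 6 pairs), and 2 had an unadjusted p under 0.05. COL5A1/COL5A2 was -0.49 ± 0.41 (SD, n = 6) in DPs and -1.27 ± 0.42 in MHs, a difference of 0.78 (exact permutation p = 0.00866, adjusted p = 0.0519). COL8A1/COL8A2 was 0.69 ± 0.83 in DPs and 1.89 ± 0.49 in MHs, a difference of -1.20 (exact permutation p = 0.0173, adjusted p = 0.0519). Both passed with the stage means removed, and also without DPLBJ replicate 2. COL11A1/COL11A2 was -0.67 ± 1.51 and -1.67 ± 1.27, with the lowest DP value in DPLBJ replicate 1 (-3.72). COL4A1/COL4A2 (0.12 ± 0.27 in DPs and 0.09 ± 0.23 in MHs) and COL6A1/COL6A2 (-0.21 ± 0.12 and -0.33 ± 0.38) differed by less than the spread between libraries, as did COL6A3/COL6A1 (-0.52 ± 0.82 and -0.52 ± 0.77).

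Between tissues, 4 pairs had enough reads in all 24 libraries. COL6A3/COL6A1 was -0.52 ± 0.76 (SD, n = 12) in the long bone and -3.05 ± 0.53 in the pituitary, without overlap, a difference of 2.53 (permutation p = 2e-05, the smallest that 100000 resamples give, adjusted p = 8e-05 over 4 pairs). The long chain of type VI was thus higher against the first chain in the long bone. COL6A1/COL6A2 differed by -0.39 (permutation p = 0.0054, adjusted p = 0.0108), COL5A1/COL5A2 by -0.44 (adjusted p = 0.0707) and COL4A1/COL4A2 by -0.02 (adjusted p = 0.781). With libraries paired by breed, stage and number, COL6A3/COL6A1 alone passed.

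Collagen chains need enzymes and chaperones to fold, proteases to remove their ends, and lysyl oxidases to crosslink them. Of 44 such genes and collagen receptors found in the table, the juvenile long bone had 15 of 43 tested as DEGs higher and 3 as DEGs lower in DPs, the adult long bone 17 and 1 of 43, and both stages combined 17 and 3 of 44. These are 41.9%, 41.9% and 45.5%, against 13.8%, 18.3% and 19.3% of all genes. The largest changes in juveniles were those of COLGALT2 (5.72 ± 1.57), which adds galactose to collagen, PCOLCE2 (3.09 ± 0.67), which enhances removal of the end peptide, and LOXL4 (2.67 ± 0.77), a lysyl oxidase. In adults they were COLGALT2 (4.29 ± 1.83), LOXL4 (2.92 ± 0.48, edgeR adjusted p = 0.0334) and FKBP10 (2.52 ± 0.7), a chaperone of type I collagen. Over both stages they were COLGALT2 (5.01 ± 1.39), GP6 (4.4 ± 1.15), a collagen receptor of platelets, and LOXL4 (2.79 ± 0.5, edgeR adjusted p = 0.00877). By step, 4 of 5 crosslinking genes, 7 of 18 folding genes and 3 of 8 propeptide processing genes were higher over both stages. The lower ones over both stages were DDR1 (-1.28 ± 0.33) and ITGA1 (-1.16 ± 0.21), collagen receptors, and TLL2 (-1.22 ± 0.3), listed with propeptide processing. The same 3 were lower in juveniles (-1.35, -1.3 and -1.8), and DDR1 was the lower one in adults (-1.17).

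In the juvenile pituitary 6 of 43 were higher and 6 lower in DPs, or 27.9%, against 20.3% of all genes, in a comparison whose MHPJ libraries were all low in hormone transcripts. The largest were ADAMTS14 (-3.76 ± 0.94), ITGA11 (-3.28 ± 0.56) and ADAMTS3 (-3.07 ± 1.16). ITGA11 encodes part of a receptor for fibrillar collagen, and the other 2 encode procollagen proteases. By edgeR none of 42 was a DEG in the adult pituitary (unadjusted P under 0.05 for 2). Between stages, the MH long bone gave 1 lower (PCOLCE2, -1.82 ± 0.6), the DP long bone none of 43 (unadjusted P under 0.05 for 0), the MH pituitary 4 higher and 1 lower in juveniles, led by ADAMTS14 (2.85 ± 0.76), ITGA11 (2.55 ± 0.52) and P4HA3 (2.14 ± 0.86) with PPIB, a folding enzyme, lower (-1.34 ± 0.52), and the DP pituitary 1 higher (CREB3L1, 1.63 ± 0.32). The MH pituitary share was 11.9%, against 7.74% of all genes. Between tissues 25 of 44 were higher in the long bone and DDR1 was lower (-2.01 ± 0.19), or 59.1%, against 38.9% of all genes, with LOXL4 (5.22 ± 0.51), ADAMTS14 (4.99 ± 0.45) and LOX (4.9 ± 0.39) as the largest and all 5 crosslinking genes among them.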

How the data were processed

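RNA of the pituitary and long bone epiphysis of 12 horses was sequenced (24 libraries). Per the labels, total RNA was extracted with hot phenol and made into directional libraries after removal of ribosomal RNA. The labels name TopHat2, bcl2fastq and edgeR without versions, while the published methods name Salmon and the EquCab 3.0 assembly, so the step that made the read counts is not settled, nor whether it used strand. The authors deposited raw read counts per gene and RPKM per gene, and both tables were used as deposited. Their columns hold no comparison of groups. The reads cover 24232 genes, of which 8077 have no gene name and stayed in library sizes and tests.

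Groups of 3 libraries followed the labels. Reads were scaled by TMM, filtered with filterByExpr (minimum count 10) and tested with edgeR 4.0.16 (R 4.3.3), with adjustment over all genes tested in a comparison. DEGs were called at P under 0.05 before adjustment with more than a 2-fold change, as in the study. Alternatives were no TMM, DESeq2 1.42.0, no filter, an adjusted p under 0.05, limma 3.58.1 on log2(RPKM + 1) and log2(RPKM + 0.1), all 12 libraries of a tissue, a replicate block, and leaving out each library. The fits without the pituitary libraries low in hormone transcripts were added after the data were seen. The edgeR step was tested on simulated data with known changes. Non-overlap of groups was counted in TMM-scaled CPM, and levels are shown as RPKM. Chain ratios used reads + 0.5 and scipy 1.17.1 (Python 3.11.15). Figures were drawn with matplotlib 3.10.9.

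All 41 members are accounted for, and in each comparison the text names those called and, of the collagen-processing genes, up to 3 called with the largest change. Lower genes named beyond these were picked once the values were known. The members, chain classes and lists were chosen with earlier results of these data known. Replicate numbers of different breeds or stages are different animals, and the labels do not say that a number is the same animal in both tissues. In 1 of 12 pairs of groups, DPPA and MHPA, every same-numbered pair of libraries deviated together (r = 0.621, 0.487 and 0.329), and the block left the count of that comparison at 1. Nothing in the labels says that libraries of a group were prepared independently beyond coming from separate samples, so p-values measure the spread between these samples. Precision is limited by 3 libraries per group, and intervals from reads alone were not used.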

Additional observations from a re-analysis of the deposited data

Results flagged for a closer look

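A pair of libraries stood apart from the rest of the 6 DP long bone libraries in a chain ratio, by Dixon's test of the gap to the nearest library. DPLBJ replicate 1 had a COL11A1/COL11A2 log2 ratio of -3.72, with the next at -0.324 (gap 0.86 of the range). DPLBJ replicate 3 had a COL6A3/COL6A1 log2 ratio of 1.04, with the next at -0.458 (gap 0.638 of the range). Chance flags about 1 in 20 such groups.

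The DP minus MH difference itself differed between juveniles and adults (juvenile minus adult, edgeR interaction term, unadjusted P under 0.05 and more than a 2-fold change) for 4 members in the long bone. That is 10.3% of the members tested, against 4.17% of all genes. The log2 values were -1.28 for COL4A2, -1.9 for COL25A1, -1.53 for COL6A2 and -1.51 for COL6A1, with an edgeR adjusted p of 0.971 for each. In the pituitary the breed difference did so for 7 members, which is 17.5% of those tested and near the 15.7% of all genes. These were COL12A1 (-3.64), COL26A1 (-5.5), COL6A5 (-2.75), COL28A1 (-9.9), COL24A1 (-4.95), COL2A1 (-5.12) and COL5A3 (-4.54), with an edgeR adjusted p of 0.15 to 0.225. The 3 MHPJ libraries, and 1 library each of MHPA and DPPA, are those low in hormone transcripts, and their part in these values was not tested.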

How the results depend on the processing

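The counts of collagen DEGs over both stages of the long bone (22) and between tissues (34) stayed within 1.5 times under the alternatives run, with 16 to 23 and 32 to 35 when 1 library was left out. With an adjusted p under 0.05 no member was called in the juvenile or adult long bone, the adult pituitary, any comparison of stages or either test of the breed difference between stages, and 4 were in the juvenile pituitary. Limma on log2(RPKM + 1) and on log2(RPKM + 0.1) called 9 and 8 in the juvenile long bone (15 by edgeR), 0 and 0 in the adult pituitary, 0 and 0 between stages in the MH long bone (3), and 3 and 4 for the breed difference between stages in the pituitary (7). On log2(RPKM + 1) limma called 6 in the juvenile pituitary (10). DESeq2 called 6 between stages in the DP pituitary (2) and 7 for the breed difference between stages in the long bone (4). Without the low-count filter 6 were called between stages in the MH long bone. Without TMM or with all 12 libraries the adult pituitary gave 0, and without both its replicates 1 it gave 6. With all 12 libraries the DP pituitary gave 1 between stages. Leaving out 1 library gave 9 to 17 in the juvenile long bone, 13 to 21 in the adult long bone, 8 to 24 in the juvenile pituitary, 0 to 5 in the adult pituitary, 0 to 6 and 2 to 6 between stages in the MH and DP long bone, and 3 to 9 and 1 to 5 in the MH and DP pituitary. For the breed difference between stages it gave 1 to 7 in the long bone and 4 to 11 in the pituitary. Limits set by fewer libraries aside, the cause of these changes was not tested.

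The replicate block uses numbers that pair no animals across breeds or stages. With it 2 were called between stages in the MH pituitary (7), and no other count moved by over 1.5 times. The correlations of same-numbered libraries ran from -0.43 to 0.621. The chain ratios gave 2 pairs instead of 0 between breeds with stage means removed (0 to 2 without 1 library), and 1 instead of 2 between tissues with the block (2 to 3). Of single members, COL9A2 between stages in the MH long bone turned to 0.923 without MHLBA replicate 1 (range -6.57 to 0.923), and COL2A1 in the MH pituitary to -0.0556 without MHPJ replicate 2 (range -0.0556 to 5.19). Differences near 0 also turned sign. COL6A3/COL6A1 between breeds was -0.000334 on RPKM and -0.311 to 0.225 when 1 library was left out, COL4A1/COL4A2 -0.0479 to 0.091 between breeds and -0.0546 to 0.00967 between tissues, and COL6A1/COL6A2 between breeds -0.016 to 0.211. Of 996 alternative values of single members and chain pairs 200 lost the call, and of 1734 with 1 library left out 172 did. These totals pool all comparisons and include chain pairs that were not called at first, so they are no rate for any single comparison. Without TMM the median of all genes moved from 0.05 to -0.17 in the juvenile long bone, where 28 instead of 30 of 37 members lay above 0. All fibrillar and cartilage chains tested stayed above 0 under each scaling in the 3 breed comparisons of the long bone. Depth limits COL4A3, COL6A6, COL19A1 and the type IX and X chains in MH libraries, which rest on few reads.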

Other observations

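Chain classes also shared the pituitary unevenly. In the 4 pituitary libraries with high COL9A1 the cartilage class held up to 57.8% of the summed collagen RPKM, mostly from the type IX chains, while the median over the 12 libraries was 9.75%. The 19 other chains held the largest median share there (53.8%), led by type VI (28.0%).

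COL4A3, which was not tested in juveniles of the long bone for want of reads, had at most 3 reads in each DPLBJ library and 2 to 50 in the MHLBJ libraries.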
